A study of Bos taurus with 20 samples.

Results

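The genes described here are C1QA and C1QB, which encode 2 of the 3 chains of complement C1q, and CD5L, which encodes a secreted protein of tissue macrophages. They are 3 of 14668 gene names on an Agilent 2-colour array of bovine skin, and each has 1 probe that passed the signal filter in every comparison. They were chosen by name after their difference between horn site and control site on chip 5 had been seen, so those chip 5 values are given as a description, with no test. The third chain, C1QC, is the nearest relative and is set beside them with fewer of its values.

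The biopsies were of whole skin, down to the connective tissue of the dermis. Horn-forming skin of the head was taken from 4 scurred cattle, which carry small loose horns (3 males and 1 female), 4 polled cattle, which carry none (1 male and 3 females), and 3 horned cattle (2 males and 1 female). Control skin came from the skull away from the horn site of scurred animal 2, a female, and polled animal 3, a female. Ages and breeds are not given in the sources used here. Chips 1 to 4 each joined 1 scurred, 1 polled and 1 horned animal in a loop of 4 arrays, with animals numbered by chip and horned animal 2 on chips 2 and 4. Chip 5 compared horn site with control site in the 2 animals named above, with both dye orders. In whole biopsies, fewer cells of a type and less RNA per cell cannot be told apart.

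C1q is the recognition part of the first complement component. Its A, B and C chains form a trimer with a collagen-like stalk and globular heads, which bind antibody on targets, dying cells and other surfaces and pass the signal to the proteases C1r and C1s. Most complement proteins are made by the liver, whereas C1q is made mainly by tissue macrophages and dendritic cells. CD5L, also called AIM, is a scavenger receptor cysteine-rich protein that macrophages release under control of liver X receptors. It is known from mouse and human work to travel bound to IgM and to act on lipid handling and on the clearing of dead cells.

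The 3 probes are shown because each gene rests on a single probe. The printed stretch runs from position 31 to position 60 of each 60-base probe, 5′ to 3′ as the scanner files give it, and capitals mark the letters AATAAA, the usual signal for polyadenylation.
C1QA: ttggaactcttcctggAATAAAtatctgaa
C1QB: ccctaaatgattgaatAATAAAtgacctct
CD5L: gttgagtacctgttatgtgtctgcgtttat
The letters start at position 47 in both C1q probes and are not in the CD5L stretch. They occur in the same stretch of 9.92% of 21256 probes of this length, and their complement TTTATT in 2.02%. The C1QB probe also holds an 11-base stretch that occurs more than once within it. GC content was 38.3% in the C1QA probe, 35% in the C1QB probe and 45% in the CD5L probe. In the RefSeq annotation of ARS-UCD2.0, the C1QA, C1QB and C1QC genes share a chromosome, with no gene between C1QC and C1QA, and CD5L lies on another chromosome.

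The C1q probes were among the brightest on the arrays. C1QA had a median intensity of 17600 scanner units and was brighter than 98.6% of probes, and C1QB had a median of 11200 and was brighter than 97.4%. Both were well above background in all 80 of their spot readings (2 spots, 2 dyes, 20 arrays), and none was saturated. The scanner software took 34 of the 80 C1QA readings and 24 of the 80 C1QB readings from the second scan at low sensitivity. CD5L was much dimmer, with a median of 284 units, and was well above background in 73 of 80 readings. All of its missing readings came from 2 RNAs. None of 4 CD5L readings of scurred animal 1 was well above background, and 1 of 4 was in the control skin of scurred animal 2. The offset added to the intensities shrinks ratios of such dim spots, so the scanner software's own log2 ratios of CD5L are given beside some values.

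Across arrays, 62.24% to 73.75% of spots were well above background in either dye. Reversing the dyes gave correlations of −0.947 to −0.821 on chips 1 to 4 and of −0.674 and −0.721 on chip 5 (across probes). The RNAs used on 2 chips correlated with themselves at 0.9978 to 0.9986. Their best correlations with another RNA were 0.9759 to 0.9865. As a description of the tissue, 13 of 14 keratinocyte genes and 15 of 15 dermal fibroblast and collagen genes on the array passed the filter. Of all 21475 probes, 16309 passed. Skeletal muscle genes (11 of 11) and endothelial genes (11 of 12) passed as well, so passing does not tell skin from other tissue. The number of animals limits the precision of every value below.

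C1QA varied over 2.49 log2 units among the horn sites of the 11 animals. Its log2 level was 14.07, 14.61, 15.41 and 14.29 in scurred animals 1 to 4, it was 13.58, 13.03, 14.98 and 13.45 in polled animals 1 to 4, and it was 15.52, 14.39 and 13.86 in horned animals 1 to 3. Polled animals 1, 2 and 4 lay below every scurred and horned animal, whereas polled animal 3 lay above 3 of 4 scurred animals, so the groups overlapped. Control skin stood at 13.26 in scurred animal 2 and 13.71 in polled animal 3, inside the range of the polled horn sites. The group means were 14.60 ± 0.59 (SD, n = 4) in scurred, 13.76 ± 0.85 (SD, n = 4) in polled and 14.59 ± 0.85 (SD, n = 3) in horned animals, against 13.48 ± 0.32 (SD, n = 2) in control skin.

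C1QB had the same animals at its ends. Its log2 level was 13.18, 14.10, 14.82 and 13.78 in scurred animals 1 to 4, it was 12.76, 12.24, 14.30 and 12.44 in polled animals 1 to 4, and it was 14.97, 14.26 and 13.46 in horned animals 1 to 3. Again polled animals 1, 2 and 4 were the lowest horn sites and polled animal 3 was the third highest of all. Control skin stood at 11.86 in scurred animal 2, the lowest of the 13 RNAs, and at 12.96 in polled animal 3. The group means were 13.97 ± 0.68 (SD, n = 4) in scurred, 12.94 ± 0.93 (SD, n = 4) in polled and 14.23 ± 0.76 (SD, n = 3) in horned animals, against 12.41 ± 0.78 (SD, n = 2) in control skin. In the order of the group means, scurred and polled animals stood further apart than either SD for C1QB, and polled animals stood further than that below both others for C1QC. All other neighbours of the C1q chains lay within the larger of their SDs.

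CD5L was set apart by 2 animals. Its log2 level was 6.43, 8.54, 11.37 and 8.32 in scurred animals 1 to 4, it was 7.15, 6.99, 11.18 and 6.94 in polled animals 1 to 4, and it was 8.34, 8.56 and 7.37 in horned animals 1 to 3. Scurred animal 3 and polled animal 3 thus stood far above the rest, and the range over animals was 4.94 log2 units. Control skin stood at 6.33 in scurred animal 2 and at 8.18 in polled animal 3, and the second of these was above the horn sites of the other 3 polled animals. The SDs within horn types, 2.0 log2 units in scurred and 2.1 in polled animals, exceeded every gap between neighbouring group means. Levels are compared here only within a gene, since different probes do not share a scale.

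**Figure D1:**
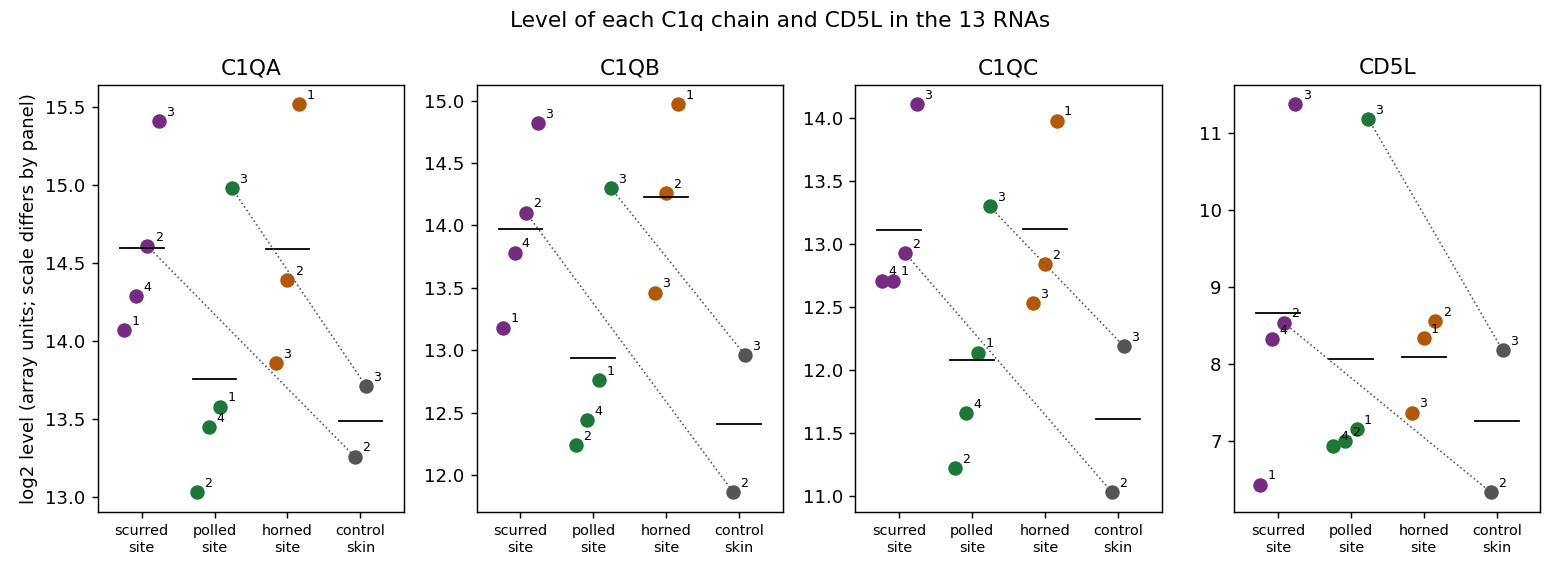
Log2 level (vertical axis, array units, with its own scale in each panel) of C1QA, C1QB, C1QC and CD5L in the horn sites of scurred, polled and horned animals and in control skin. Each point is 1 RNA with the animal's number, bars are group means, and dotted lines join a horn site to the control skin of the same animal. Both lines slope down to control skin in each panel, and CD5L stands near 11 in scurred animal 3 (11.37) and polled animal 3 (11.18) only.

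All 3 genes were higher at the horn site than in control skin of the same animal, on each of the 4 arrays of chip 5. This is the contrast that chose them, so nothing is read from it beyond the values. C1QA differed by 1.39 and 1.37 (log2, horn site minus control site) on the 2 arrays of scurred animal 2 and by 1.24 and 1.43 on those of polled animal 3. Its animal means of 1.38 and 1.34 were nearly equal, and their mean of 1.36 is a 2.56-fold difference. C1QB differed by 2.22 and 2.28 in scurred animal 2 and by 1.20 and 1.49 in polled animal 3, with a mean of 1.80, or 3.48-fold. CD5L differed by 2.54 and 1.98 in scurred animal 2 and by 3.30 and 2.80 in polled animal 3, with a mean of 2.66, or 6.31-fold. The larger C1QB difference lay in the scurred animal. Which animal had the larger CD5L difference turned with the treatment of background. The scanner software's ratios for CD5L were 5.90 and 4.51 in scurred animal 2, whose control skin was mostly not well above background, and 3.42 and 3.34 in polled animal 3.

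Of 16422 probes, 19 (0.116%) were higher by more than 1 log2 unit in both animals of chip 5, and C1QA, C1QB and CD5L are among them. Ordered by the lower of the 2 animals, CD5L had rank 3, C1QB rank 8 and C1QA rank 9, where the rank of CD5L rests on scurred animal 2, whose control skin had 1 of 4 readings well above background. Just inside that bound were SCARA5, a ferritin receptor with a scavenger receptor domain (1.07 in scurred animal 2 and 1.23 in polled animal 3), and C1QC (1.90 and 1.03 in the same order). Just outside was FGL1 (1.32 and 0.997). The first 6 by this order also held MYH1 and SLN of skeletal muscle and PMP2 and PLLP of myelin. RNASE6, a secreted antimicrobial ribonuclease of phagocytes, stood at 1.54 in scurred animal 2 and 1.26 in polled animal 3.

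The horn types were then compared at the horn site, on arrays that played no part in that contrast, although polled animal 3 and scurred animal 2 occur in both. None of the 3 genes passed the test in any comparison of horn types (limma, Benjamini-Hochberg adjustment over 16309 probes). Against the horned animal of the chip, 1 of 16309 probes passed for polled animals (0.00613%) and 0 for scurred animals (0%). Between scurred and polled animals 0 probes passed (0%). At an unadjusted p under 0.05 the counts were 1489 (9.13%), 609 (3.73%) and 988 (6.06%). The fit had 5 residual degrees of freedom.

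C1QA in polled animals differed from the horned animal of the chip by −1.91, −1.44, 1.08 and −0.93 on chips 1 to 4. The fit, adjusted for sex, gave −0.92 (SE 0.537, 95% interval −2.19 to 0.35, adjusted p 0.619, limma). C1QB differed by −2.29, −2.02, 0.91 and −1.75 on chips 1 to 4, with a fit of −1.42 (SE 0.624, 95% interval −2.90 to 0.06, unadjusted p 0.0574, adjusted p 0.558, limma). Both chains were thus lower in polled animals on 3 of 4 chips and higher on chip 3, which held the lowest horned and the highest polled animal. Among all probes, 36.3% were lower on at least 3 of 4 chips. Without chip 3 the fit was −1.57 for C1QA and −2.17 for C1QB, and without chip 1 it was −0.30 for C1QA and −0.78 for C1QB. None passed (lowest adjusted p with a chip left out 0.672 for C1QA and 0.575 for C1QB, limma). C1QC had a fit of −1.045 for polled minus horned (SE 0.489, unadjusted p 0.0702, adjusted p 0.571, limma). Its fit for scurred minus horned was 0.19 (SE 0.465).

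CD5L in polled animals stood at −1.08, −1.48, 3.97 and −1.49 against the horned animal on chips 1 to 4. The sign on chip 3 was again opposite, and it was the largest value of all (scanner software 5.31 and 5.11 on its 2 arrays). The fit of −0.15 had an SE of 1.07 and a 95% interval from −2.67 to 2.38, so differences of either sign by more than 2 log2 units lie within it (adjusted p 0.981, limma). It was −1.48 without chip 3, −0.85 without chip 2, 0.06 without chip 4 and 0.74 without chip 1.

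In scurred animals the 3 genes showed no common sign against horned animals, and these values share the horned animals with those above. C1QA stood at −1.36, 0.14, 1.5 and −0.03 on chips 1 to 4 (fit 0.17, 95% interval −1.04 to 1.38, adjusted p 1, limma). C1QB stood at −1.93, −0.15, 1.49 and −0.28 (fit −0.07, 95% interval −1.48 to 1.33, adjusted p 1, limma). CD5L stood at −1.94, 0.03, 3.90 and −0.05 (fit 0.86, 95% interval −1.55 to 3.26, adjusted p 1, limma). On chips 2 and 4, which share horned animal 2, all 3 genes in scurred animals were between −0.28 and 0.14 relative to it. Chip 1 was negative and chip 3 positive for each gene. Horned animal 1 was the highest of all RNAs in C1QA and C1QB, and horned animal 3 the lowest horned animal in all 3 genes. Without chip 3 the fits were −0.52 for C1QA, −0.88 for C1QB and −0.68 for CD5L, and without chip 1 they were 0.93 for C1QA, 0.80 for C1QB and 2.14 for CD5L, none past the threshold.

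The scurred animal of each chip had more C1QA and C1QB signal than the polled animal of the same chip. C1QA differed by 0.54, 1.58, 0.42 and 0.89 (log2, scurred minus polled) on chips 1 to 4, with a fit of 1.09 (SE 0.521, 95% interval −0.14 to 2.32, unadjusted p 0.0745, adjusted p 0.843, limma). C1QB differed by 0.35, 1.88, 0.58 and 1.48, with a fit of 1.35 (SE 0.606, 95% interval −0.09 to 2.78, unadjusted p 0.0618, adjusted p 0.841, limma). Among all probes, 9.72% were higher on 4 of 4 chips. C1QC followed with 0.61, 1.67, 0.62 and 1.06 and a fit of 1.23 (SE 0.474, unadjusted p 0.036, adjusted p 0.795, limma). CD5L had both signs, with −0.86, 1.51, −0.07 and 1.44 on chips 1 to 4 (fit 1.0, SE 1.03, adjusted p 0.929, limma), and with 1 chip left out its fit ran from 0.60 without chip 4 to 2.15 without chip 2.

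Set side by side, the mean difference of horn site over control site was 1.36 for C1QA, 1.80 for C1QB and 2.66 for CD5L. Scurred over polled horn sites gave 1.09, 1.35 and 1.0 in the same order of genes, and polled over horned horn sites gave −0.92, −1.42 and −0.15. The 2 animals behind the site values had high levels for their horn type. Polled animal 3 was the highest polled animal in each gene, and scurred animal 2 was the second highest scurred animal in each gene. Against the horned animal of its own chip, polled animal 3 stood at 1.08 for C1QA, 0.91 for C1QB and 3.97 for CD5L. Scurred animal 2 stood at 0.14, −0.15 and 0.03. Each chip paired a male with a female in its scurred and polled animals, and the fitted term for male against female was −0.46 (SE 0.466) for C1QA, −0.55 (SE 0.542) for C1QB and −0.99 (SE 0.925) for CD5L, each with an adjusted p of 1 (limma).

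**Figure D2:**
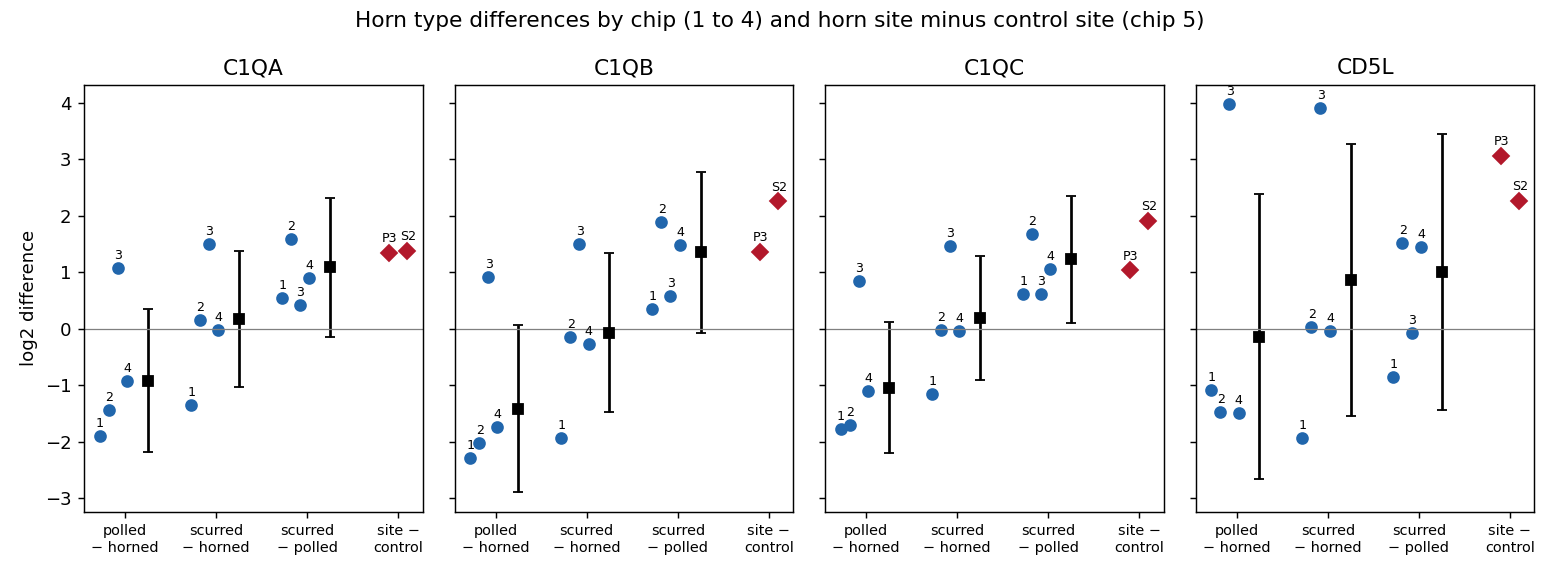
Log2 differences (vertical axis) of C1QA, C1QB, C1QC and CD5L. Circles are the differences between 2 animals on chips 1 to 4 (digits), squares are the sex-adjusted fits with 95% intervals, and diamonds are horn site minus control site in polled animal 3 (P3) and scurred animal 2 (S2). Chip 3 stands above the other chips in the 2 comparisons with horned animals, at 3.97 and 3.90 for CD5L, and the diamonds of the 3 genes lie between 1.34 and 3.05.

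The C1q chains varied closely together from animal to animal. Over the 12 values of chips 1 to 4, each taken relative to the mean of the 3 animals on its chip, C1QA correlated with C1QB at r 0.976 and with C1QC at r 0.990, and C1QB with C1QC at r 0.983. The points come from 11 animals, with horned animal 2 on both of its chips, and animals of a chip share their arrays and their mean. C1QA and C1QC differed by an SD of 0.10 log2 units around their common course, while each varied with an SD of about 0.7 (0.69 for C1QA and 0.70 for C1QC). C1QB had the wider swing, with an SD of 0.88. The largest gap between C1QA and C1QB lay on chip 4, where C1QB was at −1.08 in polled animal 4 and C1QA at −0.61. CD5L followed less closely, at r 0.808 with C1QA and r 0.761 with C1QB. It was above the line of equal change in both animals of chip 3 that were not horned, at 1.28 in scurred animal 3 and 1.35 in polled animal 3, against 0.64 and 0.22 for C1QA, and far below it in horned animal 3, at −2.62 against −0.86 for C1QA.

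**Figure D3:**
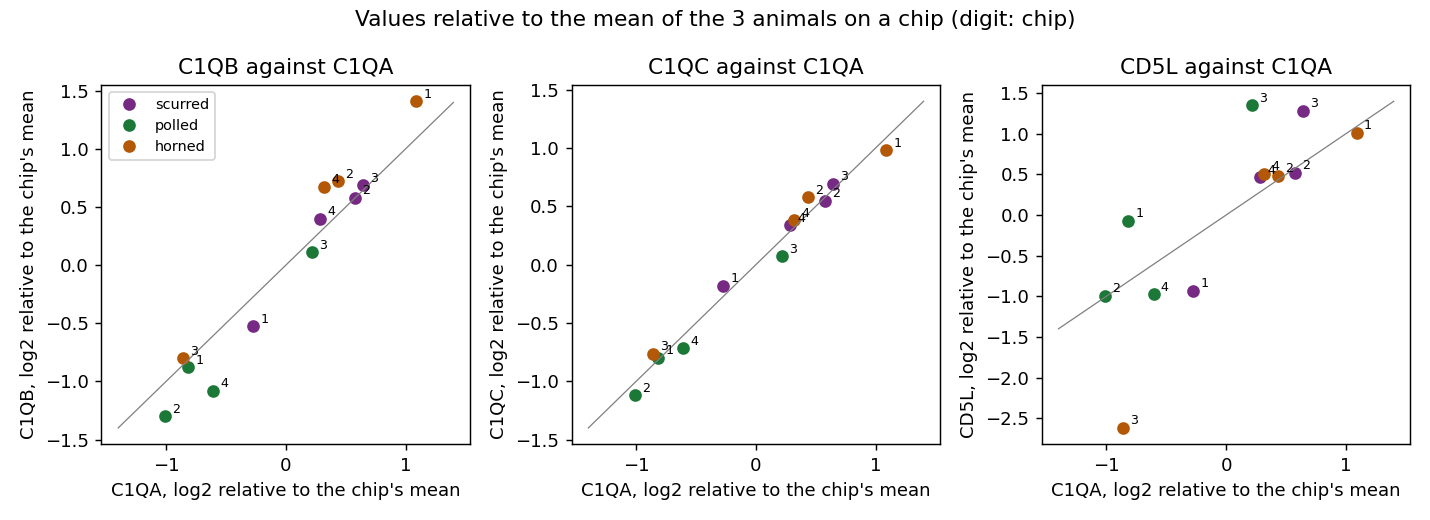
C1QB, C1QC and CD5L (vertical axes) against C1QA (horizontal axis), each as a log2 value relative to the mean of the 3 animals on its chip. The 12 points per panel are coloured by horn type, digits give the chip, and the grey line marks equal values. C1QB and C1QC lie along the line (r 0.976 and 0.990), and CD5L scatters more (r 0.808), with horned animal 3 at −2.62.

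Among 11872 genes with 1 probe each, the gene most like C1QA over these 12 values was C1QC, followed by C1QB at r 0.976, the ETS factor ETV1 (r 0.949), the macrophage mannose receptor MRC1 (r 0.945), the C1q-domain protein C1QTNF1 (r 0.936), the guanine deaminase GDA (r 0.932), DAP (r 0.928) and EVC (r 0.924). For C1QB the list was C1QC, C1QA, ETV1 (r 0.970), LRMDA (r 0.959), the growth factor receptor PDGFRA of dermal fibroblasts (r 0.951), the potassium channel subunit KCNE4 (r 0.947), DAP (r 0.947) and GPR50 (r 0.944). KCNE4 and GPR50 varied little, with SDs of 0.097 and 0.043 log2 units, against 0.88 for C1QB. These lists hold both macrophage and fibroblast genes. C1QTNF1, which followed C1QA over the animals, did not follow it at the horn site, where it stood at −0.00 in scurred animal 2 and −0.04 in polled animal 3. PDGFRA stood there at 0.24 in scurred animal 2 and −0.96 in polled animal 3.

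CD5L had other neighbours. The closest were KCTD9 (r 0.966), F13A1, the coagulation factor XIII A chain of macrophages (r 0.964), CC2D2A (r 0.910), the major histocompatibility class II chain BOLA-DRA (r 0.905), IGFBP3 (r 0.899), S100A13 (r 0.890), RASSF2 (r 0.869) and RNASE6 (r 0.867). All of these but KCTD9 were positive at the horn site in both animals. F13A1 stood there at 0.50 in scurred animal 2 and 1.47 in polled animal 3, and BOLA-DRA at 1.02 and 0.69 in the same order. KCTD9, the first in the list, stood at −0.33 and −0.08. CD5L itself ranked 143 among the genes most like C1QA.

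The rest of the classical and lectin pathways was measured through 11 genes on chips 1 to 4 and 12 on chip 5. None passed the test in a comparison of horn types. In polled against horned animals 10 of 11 had negative fits, with a median of −1.01, beside a median of 0.01 over all probes. In scurred against polled animals 10 of 11 had positive fits, beside 48.7% of all probes, with a median of 0.40. That median was 0.145 without chip 2 and 0.20 without chip 4 (8 of 11 positive in each). It was 0.65 without chip 1 and 0.41 without chip 3 (11 of 11 positive in each). C1R and C1S encode the proteases that C1q activates. C1R stood at −1.41 (SE 0.673, adjusted p 0.574, limma) and C1S at −1.15 (SE 0.632, adjusted p 0.607, limma) for polled minus horned. MASP1, a protease of the lectin pathway, had the lowest fit at −1.98 (SE 0.487, unadjusted p 0.0048, adjusted p 0.465, limma). It was chosen here after its value was seen.

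At the horn site, 11 of 12 of these genes had a positive mean and 8 of 12 were positive in both animals, beside 24% of all probes. The 8 included C5, at 0.02 in scurred animal 2 and 0.05 in polled animal 3, and C8A, at 0.05 and 0.03. Both of these genes were well above background in 0 of 11 animals, so their signs carry little weight. The size of the differences in the list lay mostly with scurred animal 2, where the list had a median of 1.01, against 0.04 in polled animal 3. C4A, the protein cleaved by C1s, stood at 3.07 in scurred animal 2 and 0.63 in polled animal 3. C1R stood at 2.73 and 0.38, C1S at 2.41 and 0.39, C2 at 1.91 and 0.21, and the lectin FCN1 at 0.51 and 0.52, in the same order. C1QB, at 2.25 and 1.35, and C1QC, at 1.90 and 1.03, were also larger in scurred animal 2, and C1QA, at 1.38 and 1.34, was nearly equal in both.

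Complement regulators and alternative pathway genes had a median of 0.51 at the horn site (6 of 12 positive in both animals) and of −0.53 for polled minus horned (9 of 11 negative, none passed). CFI, which inactivates C3b and C4b, stood at 2.26 in scurred animal 2 and 0.08 in polled animal 3. SERPING1, the inhibitor of C1r and C1s, stood at 1.49 and 0.40, CFD at 0.82 and 0.79, CLU at 1.16 and 0.01 and CD55 at −0.82 and −0.25, in the same order. Receptors for complement and C1q had a median of 0.13 at the horn site and −0.07 for polled minus horned, and none of 10 passed. Their means at the horn site ran from −0.24 to 0.53. This list does not hold VSIG4, which is given with the macrophage markers below. ITGB2, the shared chain of complement receptors 3 and 4, stood at 0.74 and 0.32 at the horn site. LRP1 stood at 0.55 and 0.03, C3AR1 at 0.15 and 0.37, CALR at −0.17 and −0.31 and C1QBP at −0.11 and −0.30, in the same order.

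Tissue macrophage markers ran with the C1q chains at the horn site but at a smaller size. As C1QA and C1QB were chosen by that contrast, nothing is read from this gap in size. Of 27 measured, 19 (70.4%) were positive in both animals, beside 24% of all probes, and their median was 0.52. The largest were VSIG4, a complement receptor of resident macrophages, at 0.84 in scurred animal 2 and 1.28 in polled animal 3, and F13A1 at 0.50 and 1.47. SIGLEC1, the sialoadhesin of resident macrophages, stood at 0.41 and 1.54, CSF1R, the receptor for the macrophage growth factors, at 0.75 and 1.13, and MARCO, a scavenger receptor, at 1.23 and 0.50. None of the 27 reached the mean of C1QA. LYVE1, SPIC, TREM2 and AXL were negative in both animals, with means from −0.19 to −0.01.

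Between horn types the macrophage markers were tested on the same 16309 probes. For polled minus horned, 1 of 27 passed, 21 of 27 had negative fits and the median was −0.31. The gene that passed was AIF1, a calcium-binding protein of macrophages, which fell by 1.71 (log2, SE 0.109, adjusted p 0.0176, limma) and was the 1 probe called in that comparison. AIF1 kept its size when any 1 chip was left out (−1.73 to −1.70) but missed the threshold with fewer chips (lowest adjusted p 0.106, limma). It differed at the horn site by 1.57 in scurred animal 2 and by −0.09 in polled animal 3, unlike the C1q chains. For scurred minus polled, 23 of 27 had positive fits and the median was 0.59, and for scurred minus horned 20 of 27 were positive with a median of 0.26, none passing. Without chip 3, the median was −0.71 for polled minus horned, with 23 of 27 negative, and it turned to −0.12 for scurred minus horned, with 15 of 27 negative. Without chip 1, the median for polled minus horned was −0.05 with 15 of 27 negative. The mean log2 level of the list ran from 10.57 to 11.32 in scurred, from 10.01 to 10.99 in polled and from 10.46 to 11.43 in horned animals, and was 9.99 and 10.60 in the control skins. All of the listed genes but SPIC, which was well above background in 5 of 11 animals, were well above background in every animal.

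**Figure D4:**
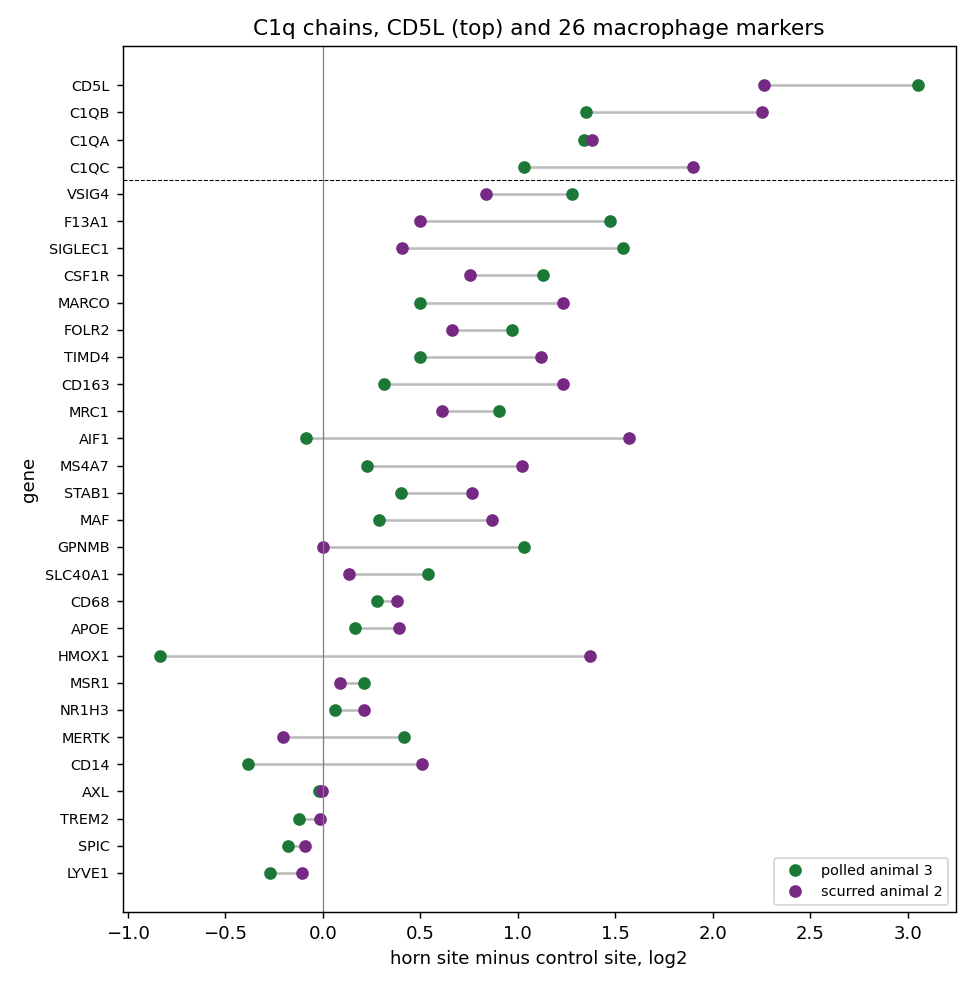
Horn site minus control site (horizontal axis, log2) in scurred animal 2 and polled animal 3 for CD5L and the C1q chains (above the dashed line) and 26 tissue macrophage markers, ordered by their mean. Each grey line joins the 2 animals of a gene. CD5L reaches 3.05 and the markers end at 1.57 (AIF1 in scurred animal 2).

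Genes of some other cell types differed along with the members, and those of others differed the opposite way. The part of either in the values of C1QA, C1QB and CD5L was not tested. At the horn site, the median of the skeletal muscle genes was 2.04 (10 of 10 positive, 7 in both animals), and their median was 3.51 in scurred animal 2 and 0.14 in polled animal 3. Schwann cell and nerve genes, a list added after values had been seen, had a median of 0.74 (13 of 14 positive, 10 in both animals). Endothelial genes had a median of 0.42 (11 of 11 positive, 7 in both animals), with 0.87 in scurred animal 2 and 0.04 in polled animal 3. Dendritic and Langerhans cell genes had a median of 0.31 (8 of 11 positive, 7 in both animals). General myeloid and granulocyte genes had 0.29 and T and B lymphocyte genes 0.02. Melanocyte genes had a median of −0.83 (5 of 6 negative, 4 in both animals). Keratinocyte genes had −0.28 (11 of 13 negative, 6 in both animals). The mean level of the muscle list was 8.56 and 8.93 in the 2 control skins, and it ran from 9.99 to 12.03 in scurred, 9.35 to 14.63 in polled and 7.80 to 12.16 in horned animals.

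For polled minus horned, the medians of both skin layers were further from 0 than that of the macrophage markers, which was not so for both layers in the other comparisons of horn types. Keratinocyte genes had a median of 2.06 for polled minus horned (13 of 13 positive, none passed) and −0.18 for scurred minus polled. Dermal fibroblast and collagen genes had −0.90 for polled minus horned (15 of 15 negative) and 1.06 for scurred minus polled (15 of 15 positive), the same signs as the C1q chains, and none passed. Without chip 2, the dermal medians were −0.18 (11 of 15 negative) and 0.24 (9 of 15 positive) in the same order of comparisons. The medians of the C1q chains without chip 2 were −0.95 and 1.17. Without chip 1, the dermal medians were −0.85 (15 of 15 negative) and 1.27 (15 of 15 positive). Those of the C1q chains without chip 1 were −0.52 and 1.36, in the same order of comparisons. The mean level of the dermal list ran from 13.45 to 13.96 in scurred, from 12.32 to 13.46 in polled and from 13.68 to 13.96 in horned animals, and stood at 13.16 and 13.61 in control skin. At the horn site of chip 5 the dermal list had a median of 0.44 in scurred animal 2 and −0.02 in polled animal 3. The share of dermis in each biopsy was not measured, and its part in the C1q values between horn types was not tested.

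**Figure D5:**
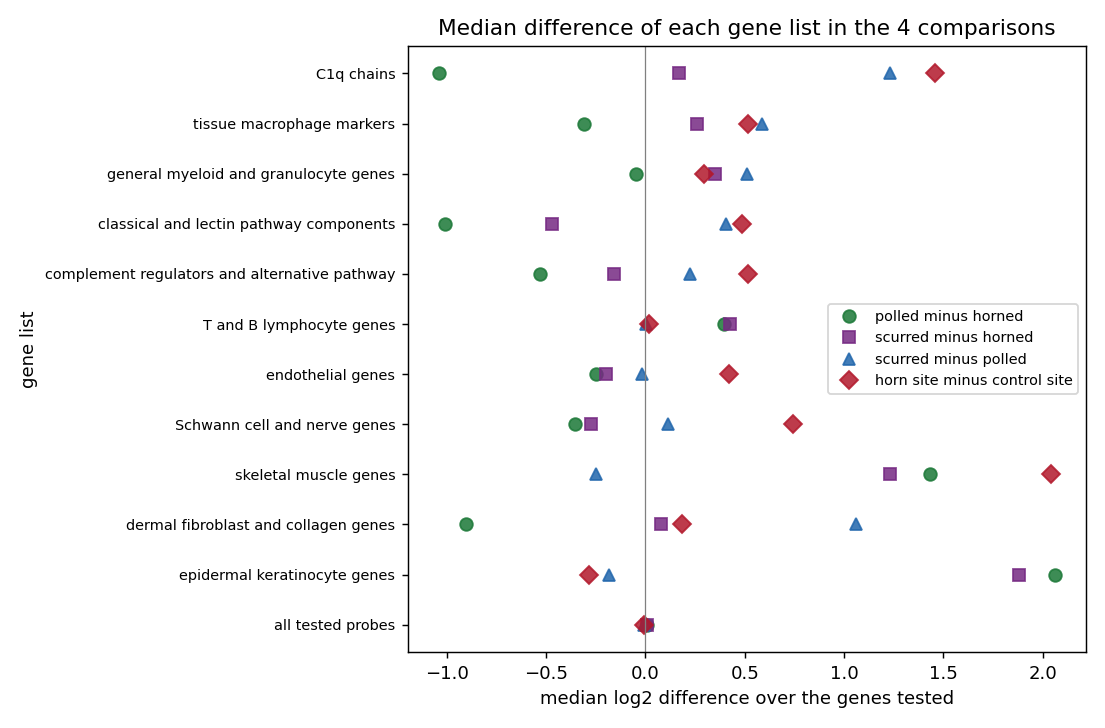
Median log2 difference (horizontal axis) of 11 gene lists and of all tested probes in the 4 comparisons, shown by colour and shape. C1q chains have the largest median at the horn site (1.46) after skeletal muscle (2.04), but C1QA and C1QB were chosen by that contrast. For scurred minus polled, C1q chains stand at 1.23 beside 1.06 for dermal genes.

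At the horn site, the contrast that chose the members, their relatives by structure had medians closer to 0 than the members. Of the other proteins with a C1q domain, 12 were measured on chip 5 with a median of 0.11, led by MMRN2 of endothelium at 0.96 in scurred animal 2 and 0.23 in polled animal 3. For polled minus horned, 12 of 13 were negative with a median of −0.40 and none passed. Without chip 2, 7 of 13 were negative with a median of −0.01. Of the other proteins with scavenger receptor cysteine-rich domains, the family of CD5L, the median was 0.15 at the horn site over 11 genes. SCARA5 led it, and CD163, the haemoglobin scavenger receptor, stood at 1.23 and 0.32, with LOXL1 at −0.36 and −0.81, in the same order of animals. None of the 11 passed between horn types.

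Liver X receptor targets and lipid genes of macrophages are a programme that in mice includes CD5L. At the horn site 5 of 11 of these genes were positive in both animals, beside 24% of all probes, with a median of 0.14. They were led by PLTP, the phospholipid transfer protein (0.36 in scurred animal 2 and 0.74 in polled animal 3), and MYLIP (0.43 in each). For polled minus horned 8 of 11 had positive fits with a median of 0.21, and none passed. Regulators and cytokines of macrophages had 5 of 12 positive in both animals, with a median of 0.02, beside 24% and −0.01 over all probes. IRF8 stood at 0.83 and 0.56, MAF at 0.87 and 0.29 and CEBPB at −0.18 and −1.08, in the same order. None of that list passed between horn types.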

How the data were processed

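RNA of 13 skin samples was measured on 20 arrays. The deposited scanner files hold the intensity of each spot on a linear scale, with processed intensities and a log10 ratio that the authors' scanner software made (Agilent Feature Extraction 9.5.1, per the submitters' processing notes). Column by column, the deposited log10 ratios of the series table matched those of the scanner files with a slope of 1 in 14 columns and −1 in 6, had column medians from −0.019 to 0.00929, and was only checked. The mean intensity was background-corrected by normexp with an offset of 50 and normalized by loess within each array in limma 3.58.1 (R 4.3.3 and the data.table package, version 1.17.8), spots marked as outliers in the files were left out and duplicate spots averaged. Probes well above background in at least 3 of 11 animals (16309), or in 2 of 4 RNAs of chip 5 (16422), were tested. Each chip was reduced to differences from its horned animal with a dye term, and the 8 differences entered 1 generalized least squares fit with polled, scurred and male. Tests were moderated by limma, two-sided, and adjusted by Benjamini and Hochberg at 0.05. Replicates are separate animals in the labels, except that horned animal 2 served on chips 2 and 4. Levels are single-channel log2 values after loess and Aquantile.

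Of 21475 probes, 16295 had a gene symbol through the reference table, and the rest kept the file's name. For genes with several probes the brightest stood for the gene. Numbered animals share a chip, and their deviations correlated at 0.236, 0.287, 0.421 and −0.0822 on the same chip. Members, lists and tests were chosen with earlier results of these data known. The members are named with all values, list genes if they passed or were among the 5 with the largest mean site difference of 1 sign, and likeness by the 8 highest correlations, and a few such genes are not reported here. The fit was tested on simulated data. No protein or promoter sequence and no genome was used here. The alternatives tried were other background corrections and scalings, filters, sex and chip terms and left-out chips or animals.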

Additional observations from a re-analysis of the deposited data

Results flagged for a closer look

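CD5L in polled animal 3 stood apart from the other polled animals, at a log2 level of 11.2 against 6.94 to 7.15, and so did its polled minus horned value of 3.97 on chip 3. The polled minus horned value of C1QB on chip 3 (0.912) and the C1QC level of scurred animal 3 (14.1) also lay far from the other 3 of their groups. Such gaps were looked for in 20 groups of 4, of which chance alone would mark about 1 in 20, and several of these groups share animals.

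3 of 34 complement genes differed by more than 1 log2 unit between horn site and control site with opposite signs in the 2 animals, on both arrays of each, and the difference between the animals was not tested. CFB, the protease of the alternative pathway, stood at 3.98 in scurred animal 2 and −1.23 in polled animal 3. C4BPA, a chain of the C4b-binding protein, stood at 2.60 and −3.43, and MASP1 at 1.09 and −2.32, in the same order.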

How the results depend on the processing

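Under 12 alternatives, 99 of 105 values of the members between horn types kept their sign and stayed short of the threshold, and none passed. The other 6 changed sign. CD5L for polled minus horned turned to 0.226 with no sex term, and with 1 chip left out it ran from −1.48 to 0.741, being 0.741 without chip 1 and 0.062 without chip 4. For scurred minus horned, leaving out 1 chip gave −0.523 to 0.925 for C1QA (−0.523 without chip 3), −0.881 to 0.802 for C1QB (0.802 without chip 1) and −0.675 to 2.14 for CD5L (−0.675 without chip 3). C1QC ran from −0.466 (without chip 3) to 0.842. CD5L had no value with the filter of every animal, which it did not pass.

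The 1 probe called for polled minus horned became 2 with median centring, 0 with the scanner software's processed signals and 0 with any 1 chip left out. For scurred minus horned 1 was called with median centring, and for scurred minus polled 1 with no sex term. AIF1 missed the threshold with the processed signals (−1.86, adjusted p 0.0523), with median centring (adjusted p 0.202) and with no replicate block (−1.80, adjusted p 0.292), by limma.

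The horn site values stayed positive for the members. C1QA was 1.30 with processed signals, 0.955 with median centring, 1.32 on the arrays with the horn site in Cy5 and 1.4 on those in Cy3, and CD5L was 4.29 with processed signals. By animal they ran from 1.34 to 1.38 for C1QA, 1.35 to 2.25 for C1QB and 2.26 to 3.05 for CD5L.

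Among other named genes, F13A1 for polled minus horned changed sign with no sex term (0.128), with no replicate block (0.0163) and without chips 1 and 4 (0.70 and 0.12, lowest −0.938 without chip 3), and CSF1R did without chip 1 (0.377, lowest −0.838 without chip 3). At the horn site CD14 did so with median centring (−0.0853) and on arrays with the horn site in Cy5 (−0.132). With 1 animal left out CD14 ran from −0.382 to 0.509, AIF1 from −0.0887 to 1.57 and MASP1 from −2.32 to 1.09. The cause was not tested.

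Signal over background limits CD5L in scurred animal 1 and in the control skin of scurred animal 2. Chip 1 and its scan day cannot be told apart.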
